A study of Mus musculus with 4 samples.

Results

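The EBF and ZFHX genes are 7 transcription factor genes (Ebf1, Ebf2, Ebf3, Ebf4, Zfhx2, Zfhx3 and Zfhx4) among the 31735 gene rows that the 4 libraries share. They were selected on their mean level in these same libraries, where Zfhx3, Ebf3, Zfhx4 and Ebf2 were the most abundant hindbrain factors, and the remaining members complete the 2 families. Their levels are therefore given as a description, with no test. The libraries hold ribosome-bound RNA of the rostral pons of adult Cbln2-TRAP NIDA172 mice, which carry Cbln2-EGFP/Rpl10a, an EGFP tag on ribosomal protein L10a. In translating ribosome affinity purification (TRAP), antibodies to EGFP pull down the tagged ribosomes with the RNA on them. All 4 libraries form 1 group of immunopurified RNA from control mice without treatment. Unpurified RNA was not analysed here, so a level in the pulldown is not an enrichment in the tagged cells. Fewer cells of a type and less RNA per cell cannot be told apart in such bulk samples. The labels do not say whether replicates are separate animals or pools, so p-values measure no more than the spread among these 4 libraries, part of which may be technical.

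EBF proteins (early B-cell factor, also called Collier/Olf/EBF) bind DNA as dimers and are known from B lymphocytes, olfactory sensory neurons and the migration and differentiation of brain neurons. In the cerebellum next to the pons, Ebf2 is known from Purkinje cells. ZFHX proteins are very large factors that combine many zinc fingers with several homeodomains. Zfhx3, also called Atbf1, is best known in the adult brain for the circadian clock of the suprachiasmatic nucleus.

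Members of a family resemble each other, so stretches where they are alike bear on how far reads can be assigned to 1 gene. The sequences below are 60 aligned coding bases, within 1 exon each and without gaps (GENCODE M21, GRCm38). They were chosen as the stretch where the other EBF genes together differ least from Ebf3, so a given pair can be more alike elsewhere. Capitals mark bases that differ from Ebf3.
Ebf3: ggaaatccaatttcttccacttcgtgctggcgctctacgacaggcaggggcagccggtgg
Ebf2: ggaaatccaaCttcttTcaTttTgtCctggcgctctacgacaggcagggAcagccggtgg
Ebf1: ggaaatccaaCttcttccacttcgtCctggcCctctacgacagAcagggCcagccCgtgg
Ebf4: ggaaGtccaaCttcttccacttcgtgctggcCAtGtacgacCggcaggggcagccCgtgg
The stretch lies in exon 2 of 16 of Ebf3 (chr7:137313562-137313621, minus strand), exon 3 of 17 of Ebf2 (chr14:67237502-67237561, plus strand), exon 2 of 16 of Ebf1 (chr11:44620467-44620526, plus strand) and exon 3 of 18 of Ebf4 (chr2:130306461-130306520, plus strand). Here Ebf2 and Ebf1 differed from Ebf3 at 6 bases each and Ebf4 at 7. Over the aligned coding sequence, identity ranged from 69.1% between Ebf2 and Ebf4 to 79.5% between Ebf1 and Ebf3. No run of 30 bases of an EBF transcript occurred in a transcript of another member.

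The ZFHX genes were compared in the same way, with capitals for bases that differ from Zfhx3.
Zfhx3: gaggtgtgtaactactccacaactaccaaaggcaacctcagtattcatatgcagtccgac
Zfhx4: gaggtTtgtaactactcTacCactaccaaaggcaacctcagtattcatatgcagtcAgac
Zfhx2: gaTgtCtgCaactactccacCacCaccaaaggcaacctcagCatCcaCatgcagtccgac
This stretch lies in exon 8 of 16 of Zfhx3 (chr8:108794435-108794494, plus strand), exon 2 of 11 of Zfhx4 (chr3:5243813-5243872, plus strand) and exon 2 of 10 of Zfhx2 (chr14:55073667-55073726, minus strand). Zfhx4 differed from Zfhx3 at 4 bases and Zfhx2 at 8. Coding identity was 64.6% between Zfhx3 and Zfhx4, 56.8% between Zfhx2 and Zfhx3 and 54.8% between Zfhx2 and Zfhx4. Of the overlapping 30-base windows along a transcript, 12 of 17123 (0.0701%) for Zfhx3 and 11 of 11258 (0.0977%) for Zfhx4 occurred in another member, and no run of 50 bases was shared by any of the 7 genes. The read length was not given in the sources used here.

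The 4 libraries held 12731825 to 21140265 gene counts, so that 1 count was worth 0.0473 to 0.0785 CPM (counts per 1000000 gene counts). Exact 95% intervals quoted below cover the error of counting alone, because without molecular identifiers several reads can stem from 1 molecule. The row Rn45s, named for the ribosomal RNA precursor, took 1.68%, 1.61%, 24.2% and 9.29% of each total in replicates 1 to 4, and its share lowers the CPM of every other gene. Of all shared rows, 33.5% (10632) reached 1 CPM in all 4 libraries, and 6 of the 7 members did. The exception was Ebf4.

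Ebf3 (ENSMUSG00000010476.14, chromosome 7, 137193673 to 137314445, minus strand) was at 603, 558, 249 and 263 CPM in replicates 1 to 4, or 418 ± 189 CPM (SD, n = 4). Replicates 1 and 2 stood together at the top and replicates 3 and 4 together below them. Ebf2 (ENSMUSG00000022053.13, chromosome 14, 67233292 to 67430918, plus strand) was at 396, 580, 225 and 165 CPM, or 342 ± 187 CPM. Replicate 2 was the highest for Ebf2, and again replicates 3 and 4 lay below both others.

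Ebf1 (ENSMUSG00000057098.14, chromosome 11, 44617317 to 45008091, plus strand), the founding member known from B-cell development, was at 167, 100, 56.6 and 90.8 CPM, or 104 ± 46.0 CPM. Its highest library was 2.94 times its lowest, against 2.43 times for Ebf3 and 3.51 times for Ebf2. Ebf4 (ENSMUSG00000053552.14, chromosome 2, 130295169 to 130370481, plus strand) was the exception of the family. It had 0 counts in replicates 1 and 2, with exact 95% upper limits of 0.174 and 0.237 CPM. In replicates 3 and 4 it had 49 and 26 counts, or 3.85 CPM (exact 95% interval 2.85 to 5.09) and 1.70 CPM (1.11 to 2.49). Taken over each pair of libraries, 75 counts stood against 0. Against a floor of 3 counts over replicates 1 and 2, Ebf4 was 32.7-fold higher in replicates 3 and 4. The counting error of the 75 counts is not included in this fold. These 2 pairs of tables list different sets of gene rows, and the part of the annotation in the zeros of Ebf4 was not tested. None of the 25 other names that RefSeq (GRCm38.p6) gives for the 7 genes had a row of its own.

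**Figure D1:**
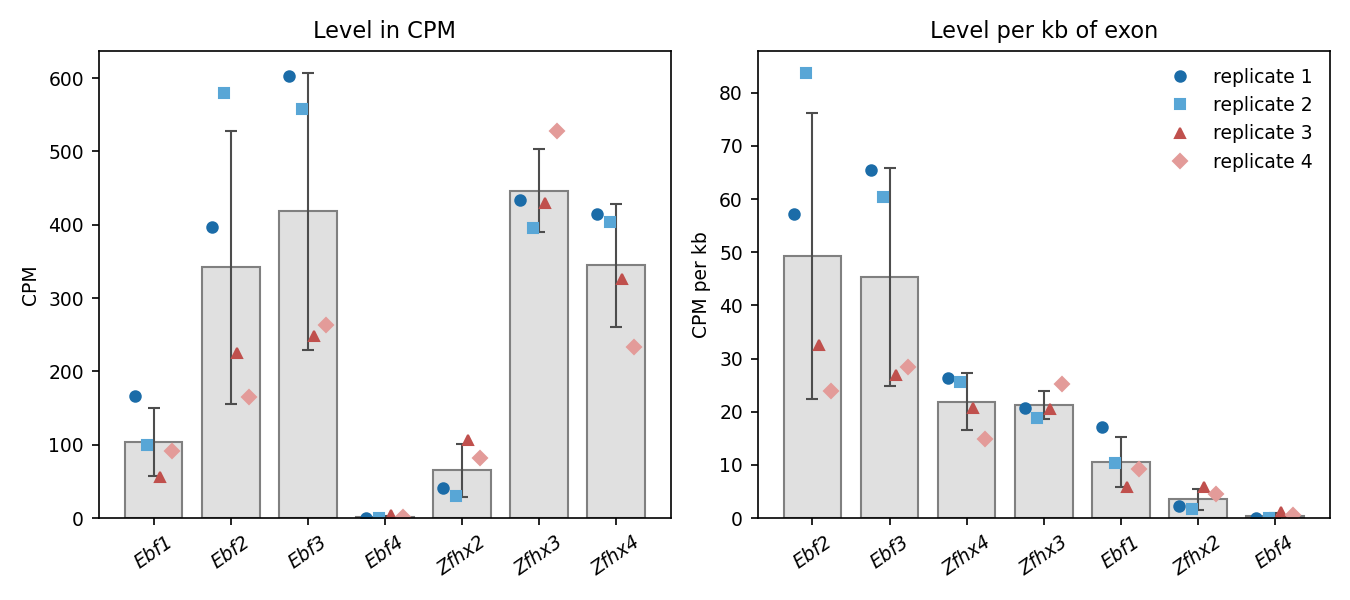
Levels of the 7 genes in CPM (left) and in CPM per kb of exon (right, genes in falling order). Bars are means, error bars are SD (n = 4) and symbols are the 4 replicates. Zfhx3 has the highest mean CPM (446), while Ebf2 and Ebf3 lead per kb (49.3 and 45.3).

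Zfhx3 (ENSMUSG00000038872.10, chromosome 8, 107942644 to 108961630, plus strand) was at 434, 396, 429 and 527 CPM, or 446 ± 56.6 CPM (SD, n = 4). It varied least of the members, with a highest library 1.33 times the lowest. Its SD of log2 CPM was 0.18, and only 2.76% of the 10632 rows detected throughout had a smaller one (median 0.67). With Rn45s left out of the totals the SD was 0.26, and with TMM-scaled library sizes 0.13. Zfhx4 (ENSMUSG00000025255.18, chromosome 3, 5218526 to 5415857, plus strand), a close relative active in the developing brain, was at 415, 404, 326 and 233 CPM, or 345 ± 84.1 CPM. Its libraries followed the order of the EBF pairs, with replicates 1 and 2 above replicates 3 and 4.

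Zfhx2 (ENSMUSG00000040721.9, chromosome 14, 55060262 to 55092324, minus strand), a smaller relative, was at 40.4, 29.7, 107 and 82.3 CPM, or 64.8 ± 36.0 CPM. It went the other way, with replicates 3 and 4 above replicates 1 and 2. Zfhx2 overlaps an opposite-strand row, Zfhx2os, which had 53, 3, 7 and 0 counts against 855, 462, 1359 and 1261 for Zfhx2. Whether the counting used strand is not stated in the labels, and reads of a gene and of its antisense partner cannot be told apart without it. Zfhx4 overlaps the opposite-strand row 2700069I18Rik, with 9, 110, 9 and 62 counts. For Ebf2 and Ebf3, the overlapping rows 4930438E09Rik and Gm10578 had at most 10 and 4 counts in any library.

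Comparison between genes needs the length of their transcripts, since long transcripts give more reads. The union of annotated exons is 20976 bases for Zfhx3, 15737 for Zfhx4 and 18166 for Zfhx2, and 9227 for Ebf3, 6928 for Ebf2, 9756 for Ebf1 and 3236 for Ebf4. Per kb of exon, Ebf2 was at 57.2, 83.7, 32.5 and 23.9 CPM per kb in replicates 1 to 4, or 49.3 ± 26.9 (SD, n = 4). Ebf3 was at 65.4, 60.5, 26.9 and 28.5 CPM per kb, or 45.3 ± 20.4. Then came Zfhx4 at 21.9 ± 5.34, Zfhx3 at 21.3 ± 2.70, Ebf1 at 10.6 ± 4.71, Zfhx2 at 3.57 ± 1.98 and Ebf4 at 0.428 ± 0.564 CPM per kb. The median over the 10131 rows that were detected throughout and have a length was 6.68 CPM per kb. Among the 23086 rows with a length, Ebf3 ranked 493, 508, 1270 and 1323 in replicates 1 to 4 and Zfhx3 ranked 2052, 2225, 1763 and 1540. On this scale the first places among the members thus belonged to the EBF genes, although Zfhx3 had the highest CPM.

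Neighbours in this order were compared by the log2 ratio of their levels per kb within each library (pseudocount 0.5), and a mean ratio under 2 SD was read as within the spread. Ebf3 and Ebf2 were not separated, with a log2 ratio of -0.07 ± 0.35 (SD, n = 4), above 0 in 2 libraries and below 0 in 2. Ebf3 exceeded Zfhx4 1.93-fold (log2 0.95 ± 0.42), in 4 of 4 libraries. With replicate 1, 2 or 4 left out this ratio was within the spread (0.84 ± 0.43, 0.86 ± 0.46 and 0.96 ± 0.51, n = 3 each). Zfhx4 and Zfhx3 were not separated (log2 0.01 ± 0.53, above 0 in 3 of 4 libraries). Ebf1 stood below Zfhx3 in 4 of 4 libraries, but within the spread (log2 -1.06 ± 0.64), and with coding length in place of exons the mean ratio was 0.44. Ebf1 and Zfhx2 were not separated either (log2 1.49 ± 1.25), and in replicate 3 Ebf1 was marginally the lower, at -0.02. Without division by length, the log2 ratio to Zfhx4 was 0.20 ± 0.42 for Ebf3 and -0.14 ± 0.49 for Ebf2, both within the spread. Within each family the last detected member stood apart. Ebf1 was below Ebf3 (log2 ratio of Ebf3 to Ebf1 2.02 ± 0.39) and below Ebf2 (2.10 ± 0.73), and Zfhx2 was below Zfhx3 (log2 ratio of Zfhx3 to Zfhx2 2.55 ± 0.66), each in 4 of 4 libraries.

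**Figure D2:**
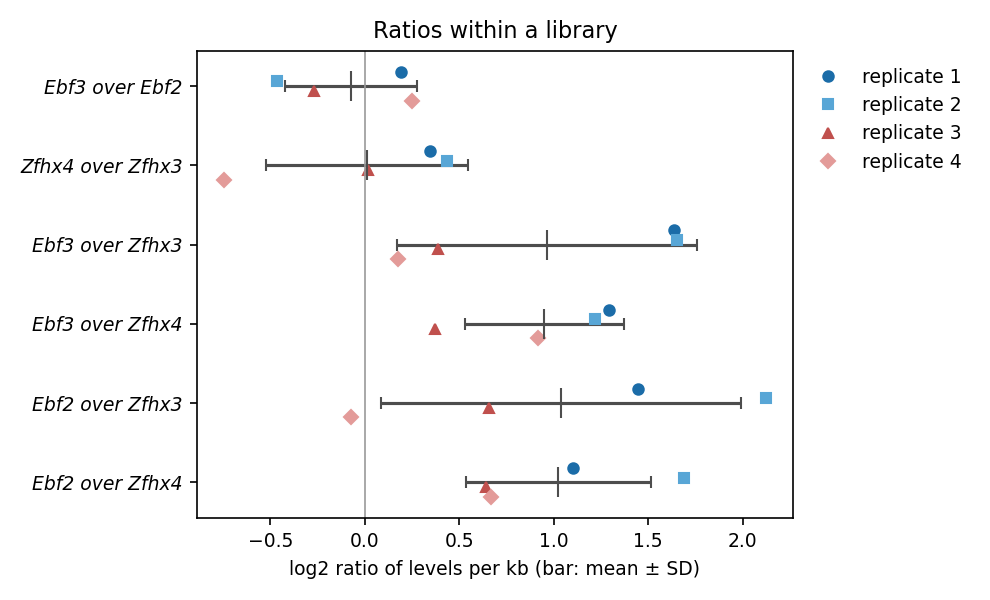
Log2 ratio of the levels per kb of gene pairs within a library. Symbols are the 4 replicates, and the bar is the mean with its SD (n = 4). In the ratio of Ebf3 to Zfhx3, replicates 1 and 2 lie at 1.64 and 1.66 and replicates 3 and 4 at 0.39 and 0.18.

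The balance between the families differed between the library pairs. The descriptions number replicates 1 and 2 as libraries 1666 and 1667 (the first pair) and replicates 3 and 4 as 2469 and 2470 (the second pair), with no batch named in the labels. Per kb, the log2 ratio of Ebf3 to Zfhx3 was 1.64 and 1.66 in the first pair, and 0.39 and 0.18 in the second. The log2 ratio of Ebf2 to Zfhx3 per kb was 1.45 and 2.12 in the first pair, and 0.66 and -0.07 in the second. Ebf2 to Zfhx4 was at 1.10, 1.69, 0.64 and 0.67 in replicates 1 to 4.

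Summed per kb, the EBF genes reached 140, 154, 66.5 and 62.2 CPM per kb in replicates 1 to 4. The ZFHX genes reached 49.3, 46.1, 47.0 and 44.5 CPM per kb with a mean of 46.7 (n = 4) and a coefficient of variation of 4.27%. The EBF sum was thus 2.83, 3.35, 1.41 and 1.40 times the ZFHX sum. This ratio is taken within a library, so the total used for scaling cancels, but it depends on the length used. Without division by length the EBF sum was 1.31, 1.49, 0.620 and 0.618 times the ZFHX sum, below it in replicates 3 and 4. The evenness of the ZFHX sum depends on the scaling. With Rn45s left out of the totals the ZFHX sums were 50.1, 46.9, 62.1 and 49.1 CPM per kb, and with TMM-scaled library sizes 48.6, 46.7, 50.9 and 41.3. The EBF sum was lower in both libraries of the second pair under each of the 4 scalings tried. In CPM, 23.8% of all tested rows were likewise lower in the second pair without overlap.

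**Figure D3:**
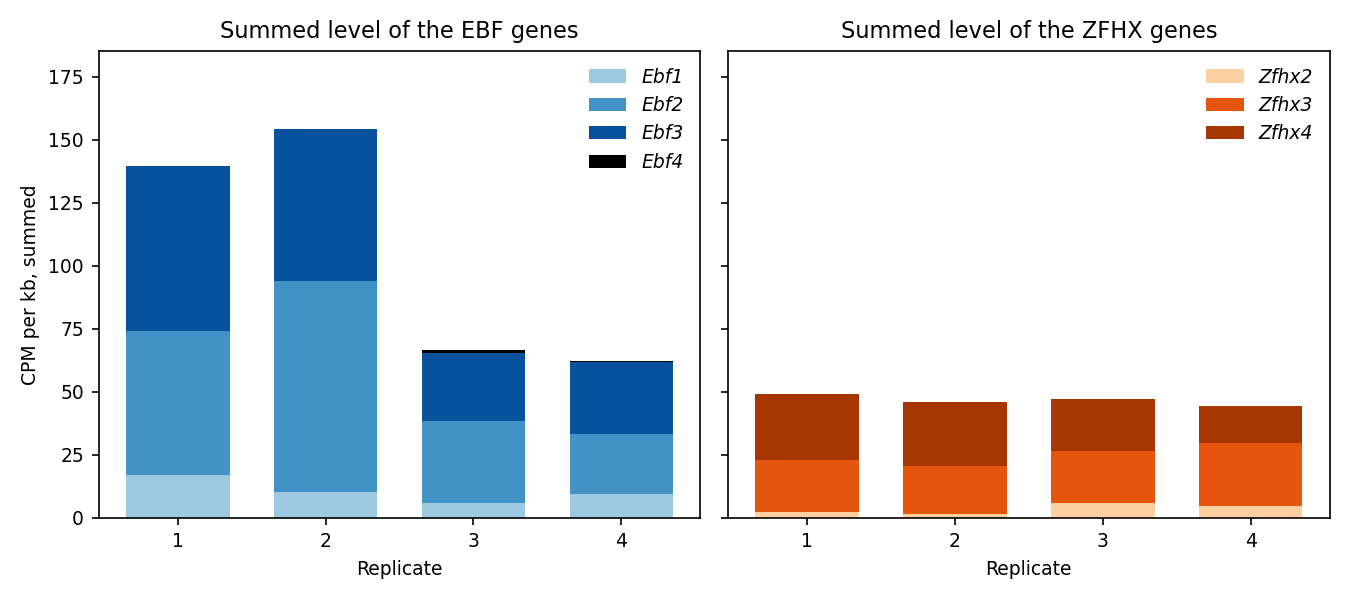
Summed levels per kb of the EBF genes (left) and the ZFHX genes (right) in each replicate, split by gene. The EBF sums are 140 and 154 CPM per kb in replicates 1 and 2 and 66.5 and 62.2 in replicates 3 and 4, while the ZFHX sums lie between 44.5 and 49.3.

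Within the EBF sum, the shares of Ebf1, Ebf2 and Ebf3 overlapped between the pairs, and that of Ebf4 did not (0% and 0% against 1.79% and 0.844%). Ebf2 made up 41.0%, 54.2%, 49.0% and 38.4% of it in replicates 1 to 4, Ebf3 46.8%, 39.1%, 40.5% and 45.8%, and Ebf1 12.2%, 6.65%, 8.72% and 15.0%. Ebf2 led in replicates 2 and 3 and Ebf3 in replicates 1 and 4, so neither gene was the leader throughout. Within the ZFHX sum, Zfhx4 made up 53.5%, 55.6%, 44.0% and 33.3% and Zfhx3 42.0%, 40.9%, 43.5% and 56.5%. Zfhx2 made up 4.52% and 3.54% in the first pair, and 12.5% and 10.2% in the second. The shares of all 3 genes did not overlap between the pairs, with Zfhx4 lower and Zfhx3 and Zfhx2 higher in the second. For Zfhx3 the margin was narrow, from 42.0% in replicate 1 to 43.5% in replicate 3. Shares of 1 sum do not vary independently, and the CPM of the pairs did not overlap for 47.5% of all tested rows.

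The library pairs were then compared over all rows. They are replicates of 1 group and differ by no treatment, and the choice of members did not use their difference. Of 13905 rows tested, 176 (1.27%) were called (edgeR quasi-likelihood test, Benjamini-Hochberg adjusted p under 0.05), 99 (0.712%) with higher and 77 (0.554%) with lower levels in replicates 3 and 4, and 0 of the 7 members were among them. At an unadjusted p under 0.05 stood 4 of the 7 members, beside 16.8% of all rows tested (2334). With replicate 1, 2, 3 or 4 left out, edgeR called 699, 662, 420 and 389 rows. DESeq2 called 1403 rows (10.1%), with Ebf2, Ebf3, Ebf4 and Zfhx2 among them. With a filter at 1 CPM in all libraries edgeR called 4.96% of rows, and with only the empty rows removed 4.77%, in both cases with Ebf2 and Ebf3 among them. With all 4 libraries, the log2 change of Ebf2 in these fits lay between -1.25 and -1.30 and that of Ebf3 between -1.12 and -1.18. With 1 replicate left out, the ranges were -1.67 to -0.95 for Ebf2 and -1.25 to -1.10 for Ebf3.

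Ebf3 averaged 581 CPM over replicates 1 and 2 and 256 CPM over replicates 3 and 4, a log2 change of -1.17 (SE 0.31, edgeR adjusted p = 0.0806). By DESeq2 the change was -1.17 with an adjusted p of 0.0112. Ebf2 averaged 488 and 195 CPM, a log2 change of -1.29 (SE 0.36, edgeR adjusted p = 0.0935), and DESeq2 gave an adjusted p of 0.0193. Without replicates 1, 2, 3 and 4 in turn, the edgeR adjusted p of Ebf2 was 0.0193, 0.275, 0.00973 and 0.218. The fits without replicates 1 and 3 called 4.6% and 2.74% of all rows. Zfhx2 averaged 35.1 and 94.5 CPM, a log2 change of 1.47 (SE 0.47, edgeR adjusted p = 0.137), with a DESeq2 adjusted p of 0.0289. Ebf1 (-0.86, SE 0.42) and Zfhx4 (-0.51, SE 0.34) had adjusted p of 0.326 and 0.495 by edgeR. Zfhx3 had the smallest change, 0.21 (SE 0.30, edgeR adjusted p = 0.793). For Ebf4 the edgeR adjusted p was 0.156, and its fold is given only against the floor of 3 counts above.

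The CPM of the pairs did not overlap for 6 of the 7 members, beside 47.5% of all tested rows. Ebf1, Ebf2, Ebf3 and Zfhx4 were lower in the second pair, beside 23.8% of all rows, and Ebf4 and Zfhx2 were higher, beside 23.7%. With Rn45s left out of the totals the pairs of Zfhx4 overlapped. Those of Zfhx3 did not overlap, with the second pair higher, both without Rn45s and with TMM-scaled library sizes. Leaving out Rn45s moved the median log2 difference between the pairs over the rows detected throughout from -0.08 to 0.16.

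**Figure D4:**
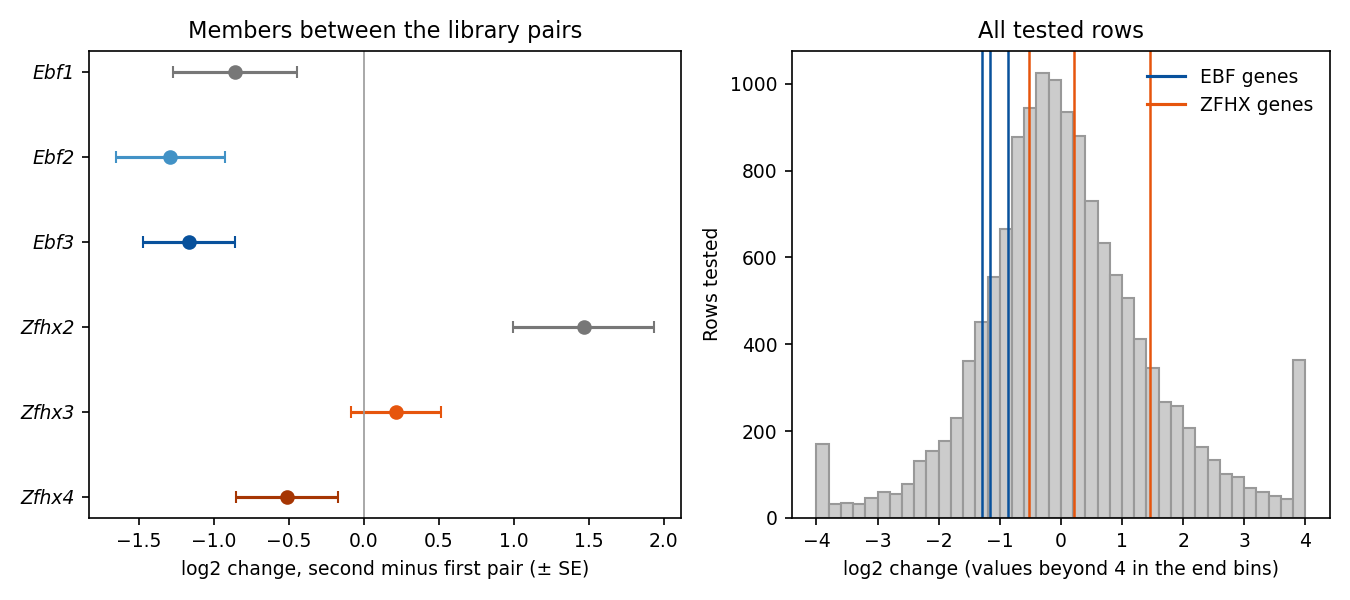
Left, log2 change of 6 members between the second and the first library pair with its SE (edgeR; Ebf4, at 0 counts in the first pair, is left out). Right, the same changes as lines over the distribution of all 13905 tested rows. Ebf2 and Ebf3 lie at -1.29 and -1.17, Zfhx3 at 0.21 and Zfhx2 at 1.47.

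Some markers of neighbouring cells also differed between the pairs. The 8 Purkinje cell markers summed to 1941, 3307, 941 and 893 CPM in replicates 1 to 4, and 6 of them reached 1 CPM in all libraries. Of the 7 tested, Car8, Itpr1 and Rora passed the edgeR test, all lower in the second pair, beside 0.554% of all tested rows. Pcp2, a defining Purkinje marker, went the other way, at 1.09, 3.60, 5.66 and 11.6 CPM. Skor2, another, was at 0 counts in replicate 3 and below 1 CPM in every library. The 8 granule cell markers summed to 971, 1773, 617 and 672 CPM. All 8 reached 1 CPM throughout, and Calb2 and Neurod1 led them per kb. Neurod1 and Cbln3 passed the edgeR test, both lower in the second pair, beside 0.554% of all tested rows. Calb2 was not called and went the other way, at 344, 298, 435 and 360 CPM (log2 change 0.34, SE 0.32). The median log2 change of the 8 markers was -1.87. Ebf2, like the sums of these lists, was highest in replicate 2. The sums of the glutamatergic, unipolar brush cell and endothelial lists also peaked there, while other lists peaked elsewhere. The part of Purkinje and granule cells in the levels of Ebf2 and Ebf3 was not tested. The 8 mural cell markers, listed because Ebf1 is known from pericytes, summed to 96.0, 81.9, 120 and 131 CPM. Much of this sum was Rgs5, at 62.0, 32.5, 81.4 and 86.2 CPM. The part of mural cells in the level of Ebf1 was not tested.

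The other marker lists were set against the label. All 8 neuronal markers, led by Snap25 and Syn1, reached 1 CPM throughout, with sums of 23202, 20925, 11414 and 11623 CPM in replicates 1 to 4. These sums were lower in both libraries of the second pair, but most of each was Snap25, at 18576.5, 15908.3, 8130.8 and 6935.5 CPM. The median log2 change of the 8 markers was -0.22, against -1.17 for Snap25. Only 1 of the 8 markers passed the edgeR test, Tubb3, which was higher in the second pair, beside 0.712% of all tested rows. The glutamatergic list, led by Slc17a6 and Slc17a7, summed to 324 to 501 CPM, and the GABA and glycine list, led by Gad2 and Gad1, to 139 to 736. Among glial lists, the sums were 253 to 1575 CPM for astrocytes (Slc1a2 and Aqp4 leading) and 26.6 to 125 for oligodendrocyte precursors (Bcas1 and Gpr17). The endothelial list, led by Slco1a4 and Flt1, summed to 139, 207, 75.9 and 38.2 CPM, and the leptomeningeal list, led by Slc6a13 and Dcn, to 27.8, 22.0, 6.44 and 18.6 CPM. Both were also lower in replicates 3 and 4, and the part of neuronal, endothelial and leptomeningeal cells in the EBF levels was not tested. The sums were 2.70 to 34.3 for microglia (Csf1r and P2ry12) and 2.93 to 127 for choroid plexus and ependyma (Ttr and Foxj1). The unipolar brush cell list, led by Lmx1a and Eomes, summed to 18.7 to 64.2 CPM. The mural list was led by Rgs5 and Vtn, and the choroid plexus gene Folr1 was at 0 counts in all 4 libraries.

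Zfhx genes belong to the zinc finger class of homeobox genes, and 9 of the 11 other genes of that class reached 1 CPM in all libraries. Per kb, the median of these 11 genes was 5.81 CPM. Zfhx4 ranked 3 and Zfhx3 ranked 4 by mean among the 14 genes, after Zhx1 at 36.3 ± 9.47 CPM per kb (SD, n = 4) and Adnp at 33.4 ± 39.7. Adnp, a chromatin regulator, was the only one of the 11 called between the pairs (1.27% of all tested rows were), with 295, 420, 0.0785 and 0 CPM. Without replicate 2 its mean was 18.4 CPM per kb. Its place therefore rests on the first pair, the part of the annotation in its zeros was not tested, and in replicates 3 and 4 it ranked last. In replicate 4 Zfhx3 ranked 1 of the 14. Zeb1, a repressor of epithelial genes, followed at 18.5 ± 5.60 CPM per kb, and Tshz2 at 8.79 ± 5.34. Zfhx2 ranked 12 by mean.

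**Figure D5:**
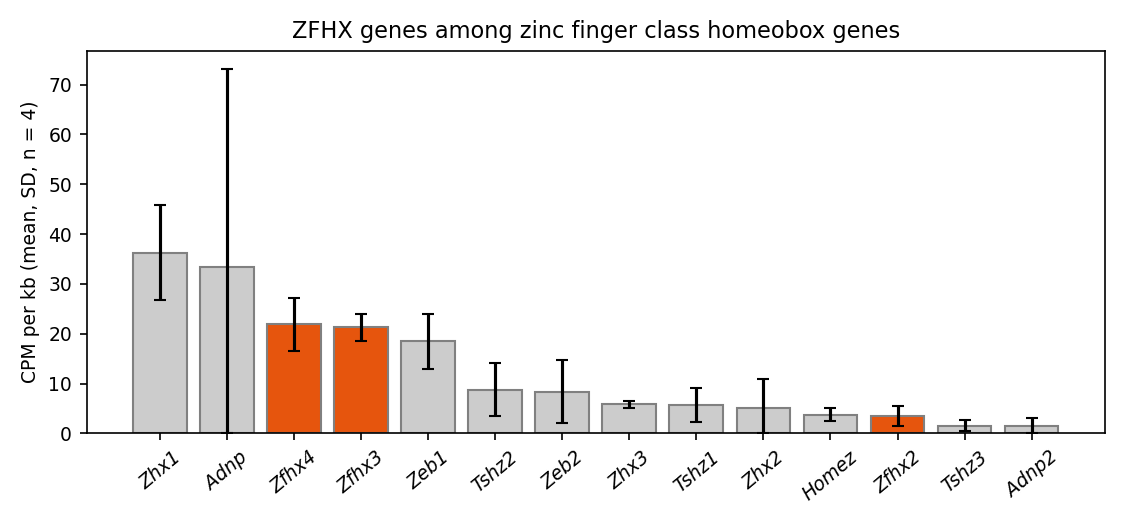
Mean level per kb of the 14 zinc finger class homeobox genes, with SD (n = 4; lower bars end at 0). The ZFHX genes are in orange. Zfhx4 and Zfhx3 follow Zhx1 and Adnp, whose SD of 39.7 CPM per kb exceeds its mean.

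The genes of known binding partners were mostly present, with 6 of 7 at 1 CPM or more throughout and a median of 9.65 CPM per kb. None of the 6 tested was called between the pairs by edgeR, and 0 of them had an unadjusted p under 0.05. Of all tested rows, 1.27% were called and 16.8% had an unadjusted p under 0.05, so few of 6 genes would be reached at these shares. Zfp423, whose zinc finger protein binds EBF proteins, was at 86.6, 98.1, 87.2 and 113 CPM, and its close relative Zfp521 at 45.3, 89.2, 66.7 and 70.2 CPM. Between the pairs Zfp423 had a log2 change of 0.12 (SE 0.39, edgeR adjusted p = 0.929). The chromatin remodellers Chd4 and Smarca4, which act with or against EBF1 in B cells, were at 22.8 ± 8.79 and 22.8 ± 6.71 CPM per kb (SD, n = 4). Of 20 other factors of the pons and the rhombic lip, 11 reached 1 CPM throughout, with a median of 1.10 CPM per kb. By edgeR 0 of 14 tested were called and 3 had an unadjusted p under 0.05, beside the same shares of all rows. The highest per kb were En1 at 12.9 ± 4.53, Lmx1a at 12.5 ± 5.41, Barhl2 at 5.05 ± 6.03 and Lmx1b at 3.81 ± 5.21 CPM per kb (SD, n = 4). Without its highest library Barhl2 averaged 2.06 (replicate 2 left out) and Lmx1b 1.36 (replicate 3 left out). Ebf2, Ebf3, Zfhx4 and Zfhx3 thus had higher means per kb than each of these 20. They were chosen for their high level in these same libraries, in CPM without division by length, so this is no separate result.

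The genes most like each member in their pattern over the 4 libraries were found by the root mean square difference of log2 CPM profiles, each centred on its own mean, among 6760 genes with a mean of 20 CPM or more. With 4 libraries such likeness is a description only. Nearest to Ebf3 were Cacnb4, a calcium channel beta subunit gene (difference 0.02), Ciao1 (0.03) and St8sia3 (0.04). Nearest to Ebf2 were Gtpbp4 (0.01), Crebrf (0.05) and Pomk (0.05), and nearest to Ebf1 were Prrg3, Acyp2 and Angel2 (0.05 each). Zfhx3 was nearest to Plekha8 (0.02), Nfe2l1 (0.03) and Znfx1 (0.04), Zfhx4 to Coa3, Ubxn2b and Akap10 (0.04 each), and Zfhx2 to Arhgap1, Sh3bgrl3 (0.05 each) and Arhgdia (0.07). No member was among the 3 nearest genes of another. Ebf2 was at position 719 for Ebf3 (difference 0.31), and Ebf3 at position 336 for Ebf2. Zfhx3 and Zfhx4 differed from each other by 0.47, and Zfhx2 differed from Ebf2 by 1.41, the widest gap between members of at least 20 CPM.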

How the data were processed

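STAR 2.0.0e, HTSeq and the build mm10 are named in the submitters' processing notes, while the gene annotation, strand setting and counting options are not. The values the authors deposited are raw counts of reads per gene symbol, without normalization. Summary rows for reads in no gene (24.0% to 30.1% of a table's total), ambiguous (1.25% to 2.07%) and multiply aligned reads (28.6% to 37.2%) and an empty row named unknown stayed out of totals and tests. The tables of replicates 1 and 2 have 32531 gene rows and those of replicates 3 and 4 have 32657, of which 31735 are shared. The title of the library described as a further replicate 3 was followed, which makes it replicate 4.

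CPM were computed over all gene rows of a library and divided by the union of exons per symbol (GENCODE M21, GRCm38, the assembly of mm10). Library pairs were compared with the quasi-likelihood test of edgeR 4.0.16 after TMM scaling and filterByExpr, with Benjamini-Hochberg adjustment over all tested rows and a threshold of 0.05. The SE is the log2 change divided by the root of F. DESeq2 1.42.0, other filters, scalings, lengths, pseudocounts and left-out replicates were alternatives. Coding sequences were aligned with MAFFT 7.526. The members and lists were chosen with earlier results of these data known. Named genes are all members, the 4 highest per kb and any called or always-zero gene of each of the 3 factor lists, the 2 highest of each marker list (1 list is not reported here), the 3 nearest patterns per member, and overlapping rows.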

Additional observations from a re-analysis of the deposited data

Results flagged for a closer look

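The share of Zfhx3 in the summed ZFHX level per kb had 1 library far from the others. It was 42.0%, 40.9%, 43.5% and 56.5% in replicates 1 to 4, and the gap between replicate 4 and the next library took up a fraction of 0.833 of the whole range, above the limit of 0.829 for 4 samples. Zfhx4 had its lowest level in the same library (233 CPM). In all, 31 sets of 4 values were looked at in this way and 1 passed the limit. Chance passes about 1 in 20.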

How the results depend on the processing

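No paired analysis was possible because the 4 libraries form 1 group and the library pairs share no replicate numbers. The ratios between the families moved with the length used. With coding length in place of exons, the log2 ratios of Ebf3 to Ebf2, Zfhx3 and Zfhx4 were 0.29, 2.42 and 2.77, those of Ebf2 to Zfhx3 and Zfhx4 were 2.14 and 2.49, those of Ebf1 to Zfhx3 and Zfhx2 were 0.44 and 2.78, and that of the EBF sum to the ZFHX sum was 2.49. Without division by length they were 0.34, -0.20 and 0.20 for Ebf3, -0.54 and -0.14 for Ebf2 (the last a reversal of a ratio over 2 SD), -2.20 for Ebf1 to Zfhx3, and -0.10 for the sums. With the longest transcript, Ebf3 to Ebf2 was 0.40 and Ebf3 to Zfhx4 was 1.65. With 1 replicate left out, the ratio of Ebf3 to Zfhx4 exceeded 2 SD in 1 of 4 fits and that of Ebf2 to Zfhx4 in 3 of 4 (not without replicate 1), while those within a family to Ebf1 and Zfhx2 did in 4 of 4. Those of Ebf1 to Zfhx3 and to Zfhx2, within the spread over all libraries, exceeded it in 1 of 4 each (without replicate 1 and without replicate 3). The mean ZFHX sum was 52.0 CPM per kb without Rn45s in the totals and 56.4 without the 20 most abundant rows. Between the pairs, edgeR called 176 rows (99 higher, 77 lower) against 1403 (737 and 666) by DESeq2, 875 (422 and 453) with only empty rows removed and 528 (284 and 244) at 1 CPM in all libraries. Leaving out any 1 of the 4 replicates gave 389 to 699 rows, 171 to 369 higher and 218 to 367 lower. The count of members called was 0, against 4 by DESeq2, 2 under each of those filters and 0 to 1 with a replicate left out, where the lone library of a pair was assumed to vary like the other pair. With a 50 CPM minimum, 1 of the 3 nearest genes of Zfhx3 and of Zfhx4 remained. The cause of these shifts was not tested. The zeros of Ebf4 were in the libraries with 21140265 and 15556918 gene counts and its 49 counts in the library with 12731825. The part of depth in these zeros was not tested.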
